A study of Mus musculus with 20 samples.

Results

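The circadian clock genes are described here as 10 transcripts of mouse liver: Arntl, Clock, Npas2, Per1, Per2, Per3, Cry1, Nr1d1, Dbp and Ciart. They were chosen by symbol, as the rows of the count table whose Ensembl identifiers carry these names in GENCODE M21, and all 10 were found among 21780 genes and passed the filter on low counts. RNA-seq libraries of 20 livers were analysed, 1 for each mouse, with 5 mice in each of 4 groups. The mice of all groups were male C57BL/6J animals on a high-fat diet (HFD) with 42% of its calories from fat, which they received from 8 weeks of age. HFD control mice received a gavage of corn oil, the vehicle, without PCB. HFD + Aroclor mice received Aroclor 1260 (20 mg/kg of a commercial mixture of mainly non-dioxin-like polychlorinated biphenyls). HFD + PCB 126 mice received PCB 126 (a dioxin-like congener, 20 ug/kg) and HFD + Aroclor + PCB 126 mice received both. The PCBs were given by 1 gavage at 10 weeks of age, and the methods of the study place euthanasia 10 weeks later after a fast of about 6 hours, whereas the sample labels give 12 weeks of treatment. The time of day of collection is not given in the sources used here, so every level below is a level at an unknown clock time. No group without the high-fat diet was sequenced.

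The circadian clock is a loop of transcription that turns over about once a day in nearly every cell. Arntl (also written Bmal1) pairs with Clock or its paralogue Npas2, and the pair binds E-box sequences and switches on the Per and Cry genes, Nr1d1, Dbp and Ciart. The PER and CRY proteins then inhibit the pair. Nr1d1 encodes REV-ERB alpha, which represses Arntl, Npas2 and Cry1 through ROR elements and thereby forms a further loop. Dbp encodes an activator that binds D-box sequences, and Ciart (also called Chrono) encodes a repressor of the pair. In liver the activator arm (Arntl, Clock, Npas2) and the output arm (Dbp, Nr1d1, Per3) peak at nearly opposite times of day, and feeding time is the main signal that sets their phase.

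The letters of these elements were looked for in RefSeq promoter windows (GRCm38.p6, 250 bases before to 50 after each start, both strands), since the members act on each other through such elements. A window was found for 9 of the 10 members, and none was used for Per2. The E-box CACGTG was held by 7.15% of 32851 windows, and by those of Ciart, Cry1 and Per1. The stretches that hold it before the start are printed 5′ to 3′ on the strand of the gene, with the E-box in capitals.
Ciart, chr3:95882252-95882301, minus strand: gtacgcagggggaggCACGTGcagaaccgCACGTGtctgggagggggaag
Ciart, chr3:95882324-95882359, minus strand: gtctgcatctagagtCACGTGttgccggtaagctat
Cry1, chr10:85185094-85185129, minus strand: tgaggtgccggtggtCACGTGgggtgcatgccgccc
Per1, chr11:69098768-69098803, plus strand: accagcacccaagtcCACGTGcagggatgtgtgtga
The Ciart stretches lie before its start and within the span of C920021L13Rik, the Cry1 stretch lies in no annotated gene, and the Per1 stretch lies before a RefSeq start within the Per1 gene and in no exon.

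The D-box TTANGTAA was held by 2.32% of the windows, and among the members by that of Per3 at 2 places. The ROR element was searched as TNGGTCA, with any base allowed before GGTCA. These letters were held by 10.96% of the windows and by those of Arntl and Per3. The printed matches, all before the start, have T or C at that base, where the stricter element has A or G, so they are loose matches. For Arntl, 1 match to TNGGTCA was also found after a start and is not printed. The capitals mark the D-box in the first pair of stretches and TNGGTCA in those labelled ROR element. They read TGACCAA where these letters are on the other strand.
Per3, chr4:151044848-151044885, minus strand, D-box: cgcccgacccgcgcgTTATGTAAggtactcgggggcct
Per3, chr4:151044801-151044838, minus strand, D-box: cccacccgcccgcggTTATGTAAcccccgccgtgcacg
Per3, chr4:151044762-151044798, minus strand, ROR element: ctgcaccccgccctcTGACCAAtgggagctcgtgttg
Arntl, chr7:113207250-113207305, plus strand, ROR element: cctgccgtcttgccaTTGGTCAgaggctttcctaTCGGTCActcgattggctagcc
The Arntl stretch lies in no annotated gene, and the Per3 stretches lie within the span of Camta1. No printed match overlaps another. The matches are letters in a window and no binding was measured.

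Libraries held 21836506 to 36854887 counts. Levels are in CPM (counts divided by TMM-adjusted library size), and as CPM per kb of exon where genes are compared with each other. Libraries weighted genes of high and low GC content unequally. A slope was fitted for each library, in log2 CPM (each gene relative to its 20-library mean) per 10 points of GC percent. It averaged 0.26 ± 0.19 (SD, n = 5) for HFD control, 0.0093 ± 0.092 for Aroclor, 0.12 ± 0.21 for PCB 126 and −0.39 ± 0.21 for the combined exposure. Every combined slope (−0.67 to −0.13) was below every control slope (0.0040 to 0.50), so values after GC correction are given beside the log2FC of the clock genes. The library numbers run through the groups in order, and which library was in which of the 2 sequencing runs is not given in the sources used here, so the order of the libraries cannot be told apart from the exposure. Among the exposure markers, Cyp1a2, a target of the dioxin receptor, was called higher with PCB 126 (log2FC 2.04, adjusted p = 0.000294, edgeR) and with the combined exposure (1.00, 0.00325). Cyp1a1, the classical target of that receptor, was at 4.09 to 314 CPM in the PCB 126 mice but at 0.792 to 2.62 CPM in the combined mice, which overlapped HFD control (0.219 to 0.940 CPM). Cyp2b10, a target of the receptor that responds to non-dioxin-like PCBs, had a log2FC of 1.97 with Aroclor (adjusted p = 0.222, edgeR). Its log2FC was 0.59 with PCB 126 (adjusted p = 0.761) and 1.72 with the combined exposure (adjusted p = 0.0830). Summed hepatocyte markers were at 86063 to 121914 CPM in the 20 mice. Summed stellate cell markers were between 121 and 233 CPM in control mice and between 255 and 317 CPM in combined mice, and their part in the results of that comparison was not tested. In bulk liver, fewer cells of a type and less RNA per cell cannot be told apart.

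Among the 10 transcripts, the output gene Dbp was the most abundant per length and Npas2 the least. In HFD control, the mean levels fell in the order Dbp (38.2 ± 16.5 CPM per kb, SD, n = 5), Nr1d1 (21.5 ± 1.51), Ciart (7.72 ± 4.52), Per2 (6.12 ± 0.625), Per1 (5.11 ± 1.51), Per3 (2.76 ± 1.39), Clock (2.38 ± 0.789), Cry1 (1.40 ± 0.402), Arntl (0.361 ± 0.142) and Npas2 (0.135 ± 0.0592). Only Nr1d1 and Ciart, and Cry1 and Arntl, were neighbours in this order whose mice did not overlap. In the combined mice, Nr1d1 was at 5.93 ± 2.05 CPM per kb, below the means of Dbp (18.9 ± 5.07), Ciart (6.94 ± 2.16) and Per2 (6.68 ± 0.901), and its mice overlapped those of its neighbours Per2 and Per3. Arntl and Npas2 were the lowest in every group. Npas2 had 9 to 24 counts per mouse in HFD control and 1 to 3 with the combined exposure, so its values carry a large counting error.

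**Figure D1:**
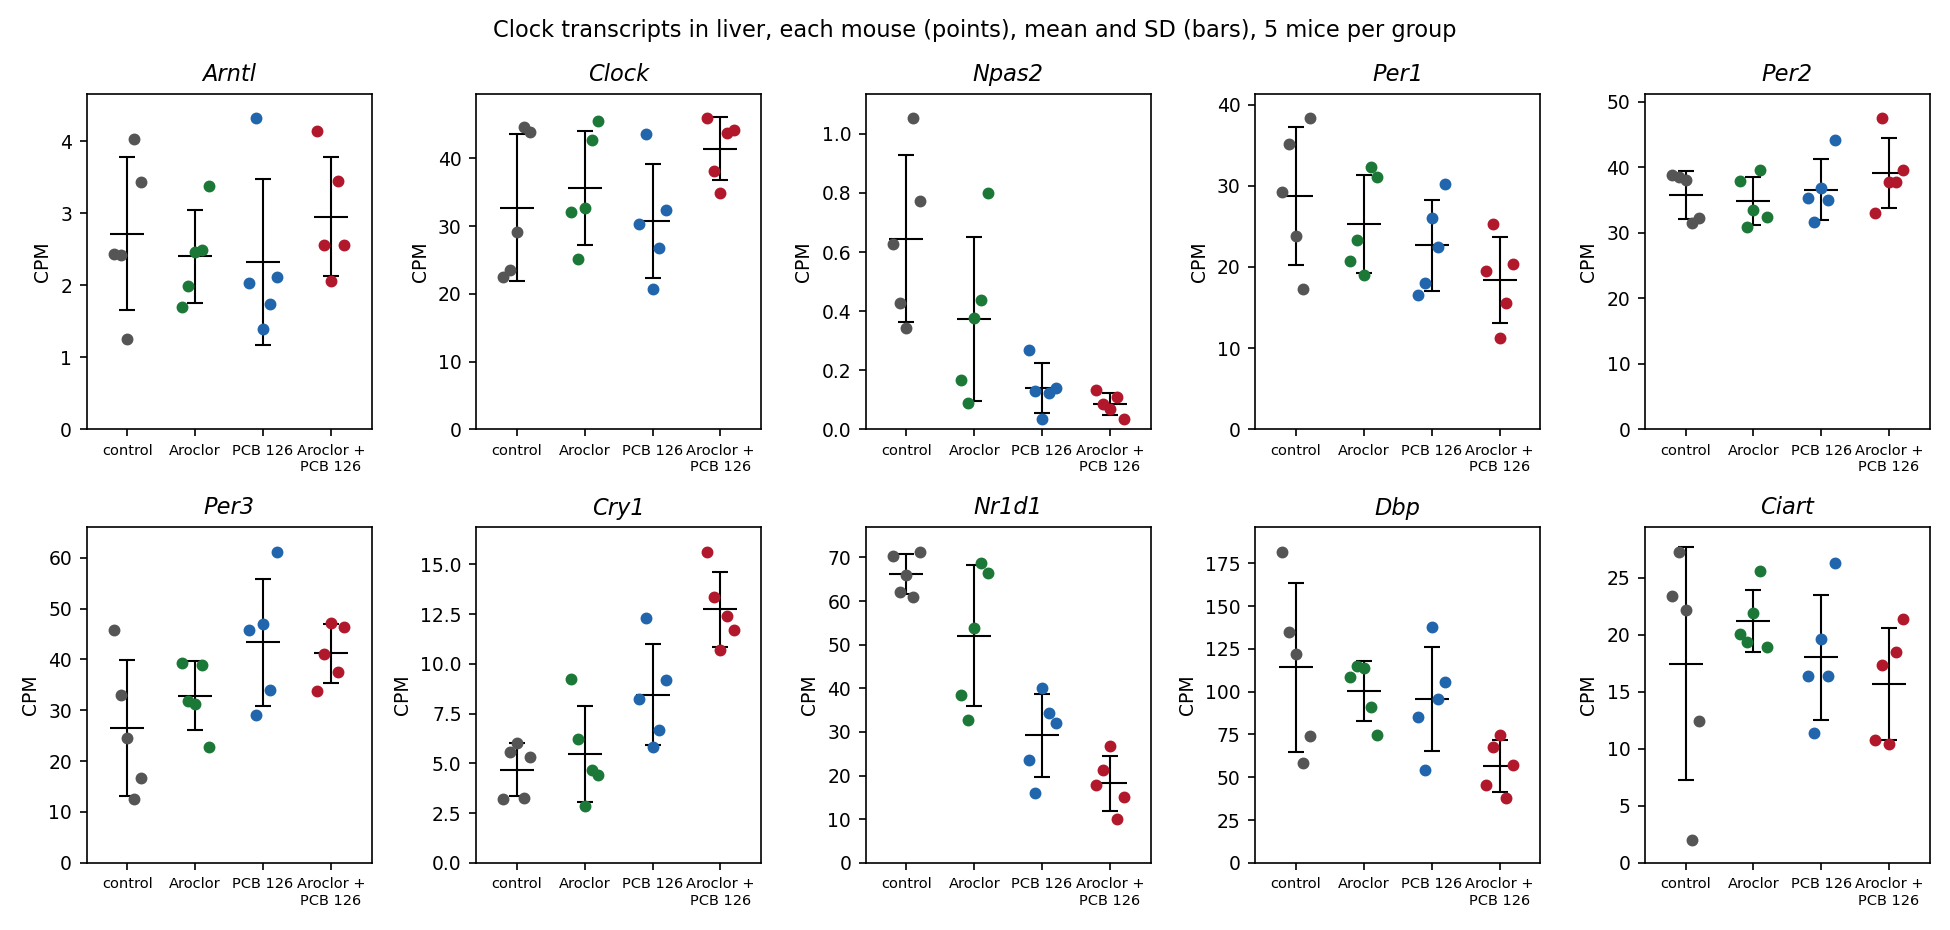
CPM of the 10 clock transcripts (y axis, from 0, own scale in each panel) in each mouse of the 4 groups (x axis); points are mice, and the bars give the mean and SD of 5 mice. Nr1d1 lay at 61.0 to 71.3 CPM in HFD control and at 10.03 to 26.8 with the combined exposure, Cry1 ran the other way from 3.21 to 6.03 up to 10.7 to 15.6, and Per2 lay between 30.9 and 47.5 CPM in all mice.

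The transcripts varied more between mice of a group than most genes did. The biological coefficient of variation, the spread between mice of a group that edgeR estimated beyond counting error, had a median of 16.9% over the 11342 genes with a mean of at least 1 CPM. It was 50.7% for Npas2, whose mean was under 1 CPM, 42.9% for Ciart, 33.2% for Arntl, 29.7% for Dbp, 29.2% for Per3, 28.2% for Cry1, 27.6% for Nr1d1, 25.7% for Per1 and 23.6% for Clock. Per2, at 13.1%, was the member below the median of all genes. Ciart spanned a wide range in HFD control, where its levels in HFD control replicates 1 to 5 were 23.4, 27.2, 22.2, 2.02 and 12.4 CPM.

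The first comparison asked whether exposure to Aroclor, PCB 126 or both moved the level of clock transcripts in HFD-fed mice. The 3 comparisons share the HFD control mice. With Aroclor, none of the 10 members passed the threshold of an adjusted p under 0.05, and none had an unadjusted p under 0.05 (edgeR, smallest adjusted p 0.409, for Npas2). Over all 15522 genes tested, 0% were called in that comparison, although 2677 (17.2%) had an unadjusted p under 0.05, and DESeq2 called no member and 0.921% of all genes. With PCB 126, none of the members passed either, but 4 had an unadjusted p under 0.05, as 14.7% of all genes did, namely Nr1d1, Npas2, Cry1 and Per3 (smallest adjusted p 0.0520, for Nr1d1), where 0.116% of all genes were called. DESeq2 called Npas2 and Nr1d1 with PCB 126, and 2% of all genes. With the combined exposure, 5 of the 10 passed: Cry1 rose, and Nr1d1, Npas2, Dbp and Per1 fell. The share called among all genes was 32.8% in that comparison, and the median log2FC of the members (−0.018) lay close to 0. After GC correction 4 members passed, against 9.14% of all genes: Cry1 and Per2 were higher and Nr1d1 and Npas2 were lower. DESeq2 called the 5 members and Per3, and 35.9% of all genes.

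**Figure D2:**
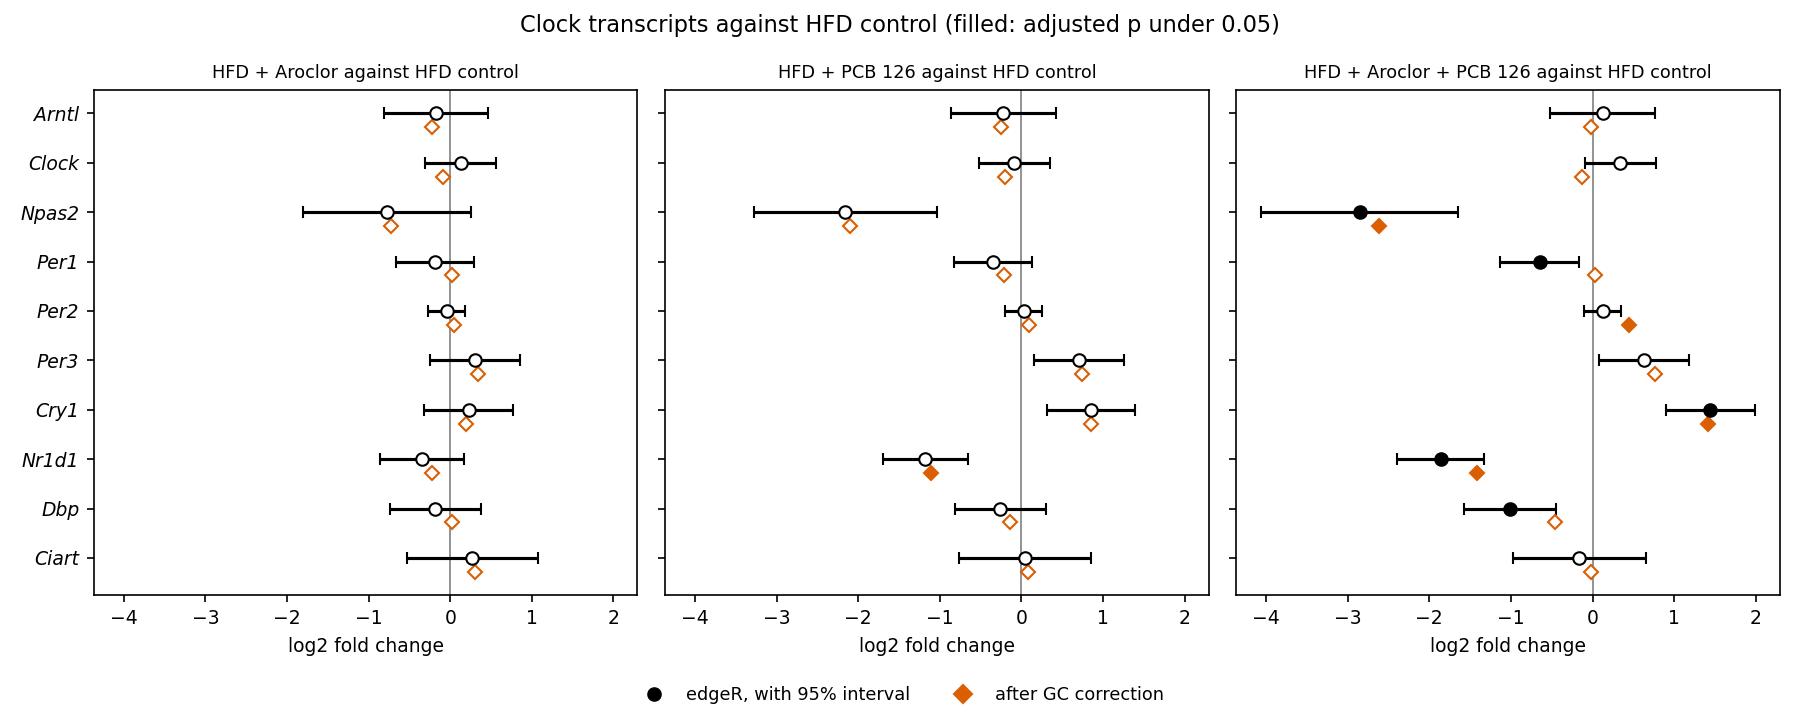
Log2 fold change of the 10 clock transcripts (x axis) against HFD control in the 3 exposures (panels), with 5 mice in each group; circles are edgeR estimates with their 95% interval, diamonds are the estimates after GC correction, and filled symbols have an adjusted p under 0.05. With the combined exposure Nr1d1 was at −1.86 and at −1.42 after the correction, Cry1 at 1.45 and 1.41, and Per1 moved from −0.65 to 0.03.

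Among the members, Nr1d1 had the smallest adjusted p with the combined exposure. Nr1d1 (ENSMUSG00000020889, GRCm38 chr11:98767932-98775333, minus strand) encodes REV-ERB alpha, a receptor for heme that represses Arntl. Its levels in replicates 1 to 5 were 70.3, 62.2, 66.1, 61.0 and 71.3 CPM in HFD control, and 38.4, 32.8, 53.9, 68.8 and 66.5 CPM with Aroclor. The PCB 126 mice had 23.5, 16.05, 40.1, 34.4 and 32.1 CPM, and the combined mice had 17.9, 21.3, 26.8, 10.03 and 15.2 CPM. The HFD control mice lay close together, 3 Aroclor mice were below their range and 2 within it, and every mouse with PCB 126, alone or combined, lay below every control mouse. With the combined exposure the transcript was 3.63-fold lower (log2FC −1.86 ± 0.26, SE, adjusted p = 0.000487, edgeR), and 2.67-fold lower after GC correction (−1.42 ± 0.20, adjusted p = 0.00125). With PCB 126 alone it was 2.26-fold lower (−1.18 ± 0.25), just outside the threshold (adjusted p = 0.0520), and it passed after GC correction (−1.11 ± 0.20, adjusted p = 0.0208, against 0.322% of all genes). Leaving out 1 mouse at a time kept the call with the combined exposure in 20 of 20 fits and gave a call with PCB 126 in 2 of 20, without PCB 126 replicate 3 (40.1 CPM) or combined replicate 4 (10.03 CPM). The gene overlaps Thra on the other strand, and how strand was treated in counting is not given in the sources used here, so its counts are uncertain where both genes lie.

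Cry1 (ENSMUSG00000020038, chr10:85131700-85185064, minus strand) encodes a cryptochrome that blocks the activator pair and is itself a target of REV-ERB alpha. It had 3.21, 5.56, 6.03, 3.25 and 5.33 CPM in HFD control and 9.24, 6.21, 2.86, 4.67 and 4.40 CPM with Aroclor. With PCB 126 it had 8.23, 12.3, 5.83, 6.68 and 9.18 CPM, and with the combined exposure 15.6, 13.3, 10.7, 12.4 and 11.7 CPM. Each combined mouse was above every HFD control and every Aroclor mouse, while the PCB 126 mice overlapped both. The share of all genes without overlap was not counted for the combined against the Aroclor mice. The transcript was 2.72-fold higher with the combined exposure (log2FC 1.45 ± 0.26, adjusted p = 0.00104, edgeR, called in 20 of 20 fits that left out a mouse), and GC correction left it at 1.41 ± 0.26 (adjusted p = 0.00419). With PCB 126 alone its log2FC was 0.85 ± 0.26, with and without GC correction, and did not pass (adjusted p = 0.158, and 0.132 with the correction).

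Npas2 (ENSMUSG00000026077, chr1:39193731-39363236, plus strand), the paralogue that can replace Clock as the partner of Arntl, was the third member whose combined and control mice did not overlap. Its levels were 0.627, 0.428, 0.343, 1.05 and 0.774 CPM in HFD control and 0.166, 0.0875, 0.376, 0.437 and 0.799 CPM with Aroclor. The PCB 126 mice had 0.268, 0.129, 0.0331, 0.124 and 0.141 CPM, and the combined mice had 0.132, 0.0852, 0.0700, 0.109 and 0.0350 CPM. All mice with PCB 126, alone or combined, were under all control mice. The log2FC was −2.85 ± 0.58 with the combined exposure (7.23-fold lower, 95% interval of the log2FC −4.06 to −1.64, adjusted p = 0.00175, edgeR) and −2.62 ± 0.59 after GC correction (adjusted p = 0.0118). With PCB 126 alone it was −2.16 ± 0.54, and −2.10 after GC correction, and did not pass (adjusted p = 0.0851 and 0.0858). The 3 members named above were the ones without overlap between combined and control mice, where 18.8% of all genes had none. This share was not counted for PCB 126 alone.

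Dbp (ENSMUSG00000059824, chr7:45705088-45710203, plus strand), the activator through which the clock drives many liver enzymes, passed as lower with the combined exposure in the fit without GC correction, and after it kept the direction but not the call. Its levels in HFD control were 182, 135, 122, 58.4 and 73.9 CPM, and in the combined mice they were 45.7, 67.6, 74.9, 38.0 and 57.3 CPM. With Aroclor it had 109, 115, 114, 90.8 and 74.6 CPM and with PCB 126 85.0, 54.3, 138, 95.8 and 106 CPM. The highest control mice were far above the combined mice, but control replicates 4 and 5 lay within their range. The log2FC with the combined exposure was −1.01 ± 0.27 (2.02-fold lower, adjusted p = 0.00767, edgeR), and after GC correction it was −0.46 ± 0.22 with an adjusted p of 0.201. Among the 10 members, the level of Dbp followed the GC slope of the library most closely within groups (r = 0.73 over 20 mice, given as a description, and 0.48 after GC correction). Dbp overlaps Sphk2 on the other strand, so its counts are uncertain in the same way as those of Nr1d1.

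The Per genes encode the period proteins, which carry the negative feedback together with the cryptochromes, and they did not move together. Per1 (ENSMUSG00000020893, chr11:69095217-69109960, plus strand), which also responds directly to glucocorticoid, had 29.3, 35.2, 23.8, 17.3 and 38.3 CPM in HFD control and 19.5, 25.3, 11.2, 15.5 and 20.3 CPM with the combined exposure, so the groups overlapped. It was lower without GC correction (log2FC −0.65 ± 0.23, adjusted p = 0.0366, edgeR, called in 13 of 20 fits that left out a mouse) and at 0.03 ± 0.22 after it (adjusted p = 0.966), where the direction turned. Its 7 lost calls came without HFD control replicate 1, 2 or 5 or without combined replicate 1, 3, 4 or 5, with an adjusted p of up to 0.101. Per2 (ENSMUSG00000055866, chr1:91415982-91459324, minus strand), which also follows systemic cues, behaved the other way: its log2FC of 0.13 ± 0.11 did not pass (adjusted p = 0.411), and the GC correction moved it to 0.44 ± 0.12, which passed (adjusted p = 0.0233). Its mice spanned 31.5 to 38.9 CPM in HFD control and 33.0 to 47.5 CPM with the combined exposure. Within groups, Per2 had r = 0.12 with the GC slope of the library, and −0.40 after GC correction. For Per1 these values were 0.20 and −0.27. They are descriptions over 20 mice, and whether the correction went too far for these genes was not tested.

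Per3 (ENSMUSG00000028957, chr4:151003652-151044665, minus strand) had 45.8, 33.0, 24.5, 12.5 and 16.7 CPM in HFD control, 39.3, 31.9, 31.3, 39.0 and 22.9 CPM with Aroclor, 45.8, 29.0, 46.9, 33.9 and 61.2 CPM with PCB 126 and 33.7, 41.1, 47.2, 37.6 and 46.3 CPM with the combined exposure. Control replicates 4 and 5 were the lowest of the 20 mice, and the groups overlapped. Its log2FC was 0.71 ± 0.26 with PCB 126 (adjusted p = 0.239, and 0.75 with 0.186 after GC correction) and 0.63 ± 0.27 with the combined exposure (adjusted p = 0.0726, edgeR, and 0.76 with 0.0722 after GC correction). Of the 20 fits that left out a mouse, the second passed in that without HFD control replicate 1, the highest control mouse (log2FC 0.92, adjusted p = 0.0112). Per3 overlaps Camta1 on the same strand, so reads of the shared part cannot be assigned with certainty.

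Arntl (ENSMUSG00000055116, chr7:113207465-113314126, plus strand) and Clock (ENSMUSG00000029238, chr5:76209868-76304792, minus strand), the core activators, did not pass in any comparison with edgeR or DESeq2. Arntl was at 1.26 to 4.04 CPM in HFD control, 1.70 to 3.38 with Aroclor, 1.39 to 4.32 with PCB 126 and 2.06 to 4.14 with the combined exposure. Clock was at 22.4 to 44.6, 25.1 to 45.5, 20.8 to 43.6 and 35.0 to 45.9 CPM in the same order. All 4 groups overlapped for both. With the combined exposure the log2FC of Arntl was 0.12 (95% interval −0.52 to 0.76, and −0.02 after GC correction), and that of Clock was 0.34 (−0.10 to 0.78, and −0.12 after GC correction), and the intervals allow changes up to these bounds. Ciart (ENSMUSG00000038550, chr3:95878503-95882251, minus strand) had a log2FC of −0.16 (−0.02 after GC correction) with an interval of −0.97 to 0.65, the widest of the members after Npas2.

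The combined exposure was also set against each single exposure. Against PCB 126 none of the 10 members passed (edgeR, smallest adjusted p 0.0579, for Dbp), where 16.7% of all genes were called, and 3 of the 10 had an unadjusted p under 0.05, a share no higher than the 35.6% of all genes: Dbp (log2FC −0.75 ± 0.27), Nr1d1 (−0.68 ± 0.25) and Cry1 (0.59 ± 0.26). After GC correction Dbp was at −0.33 (adjusted p = 0.413), Nr1d1 at −0.30 (0.395) and Cry1 at 0.56 (0.221). DESeq2 called Nr1d1 and Dbp there, and 23.4% of all genes. Against Aroclor 2 members passed, where 0.412% of all genes did: Nr1d1 was lower (log2FC −1.51 ± 0.25, adjusted p = 0.0269) and Cry1 was higher (1.22 ± 0.26, adjusted p = 0.0489). After GC correction, where 0.0322% of all genes were called, Nr1d1 passed (−1.20 ± 0.20, adjusted p = 0.0257) and Cry1 kept its size (1.22 ± 0.26) with an adjusted p of 0.0965. When single mice were left out, Nr1d1 was called in 14 of 20 fits and Cry1 in 4 of 20. DESeq2 called Nr1d1, Cry1 and Dbp, and 8.65% of all genes.

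The interaction asked whether the combined exposure departed from what adding the log2FC of both single exposures would give. None of the members passed, none had an unadjusted p under 0.05 (edgeR, smallest adjusted p 0.552, for Dbp), where 0% of all genes were called and 1846 (11.9%) had an unadjusted p under 0.05. DESeq2 called no member in this comparison and 0.00644% of all genes. The interaction was −0.33 for Nr1d1 (95% interval −1.06 to 0.40), 0.36 for Cry1 (−0.39 to 1.12), −0.57 for Dbp (−1.36 to 0.22) and 0.07 for Npas2 (−2.31 to 2.46). After GC correction these were −0.085, 0.36, −0.35 and 0.21. The intervals include 0, and they allow departures from the sum up to their bounds.

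The next comparison asked how the clock transcripts varied together between mice of the same group. Each transcript's log2 CPM was taken relative to the mean of its group, and the 45 pairs of members were correlated over the 20 mice, with a two-sided permutation test of 100000 permutations of mice within groups and Benjamini-Hochberg adjustment over the 45 pairs. The permutations take the mice as independent, although 10 of the 20 matched a mouse of their own replicate number in another group best. The p-values of the pairs do not account for this likeness. The test passed for 10 pairs, 7 positive and 3 negative. The share of pairs that would pass among all genes was not counted. The activators Arntl, Clock and Npas2 varied together, Per3, Per2, Ciart and Dbp were linked in a chain of positive pairs, and each of the 3 activators was opposed to Dbp. Nr1d1, Cry1 and Per1 were in none of the 10 pairs.

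**Figure D3:**
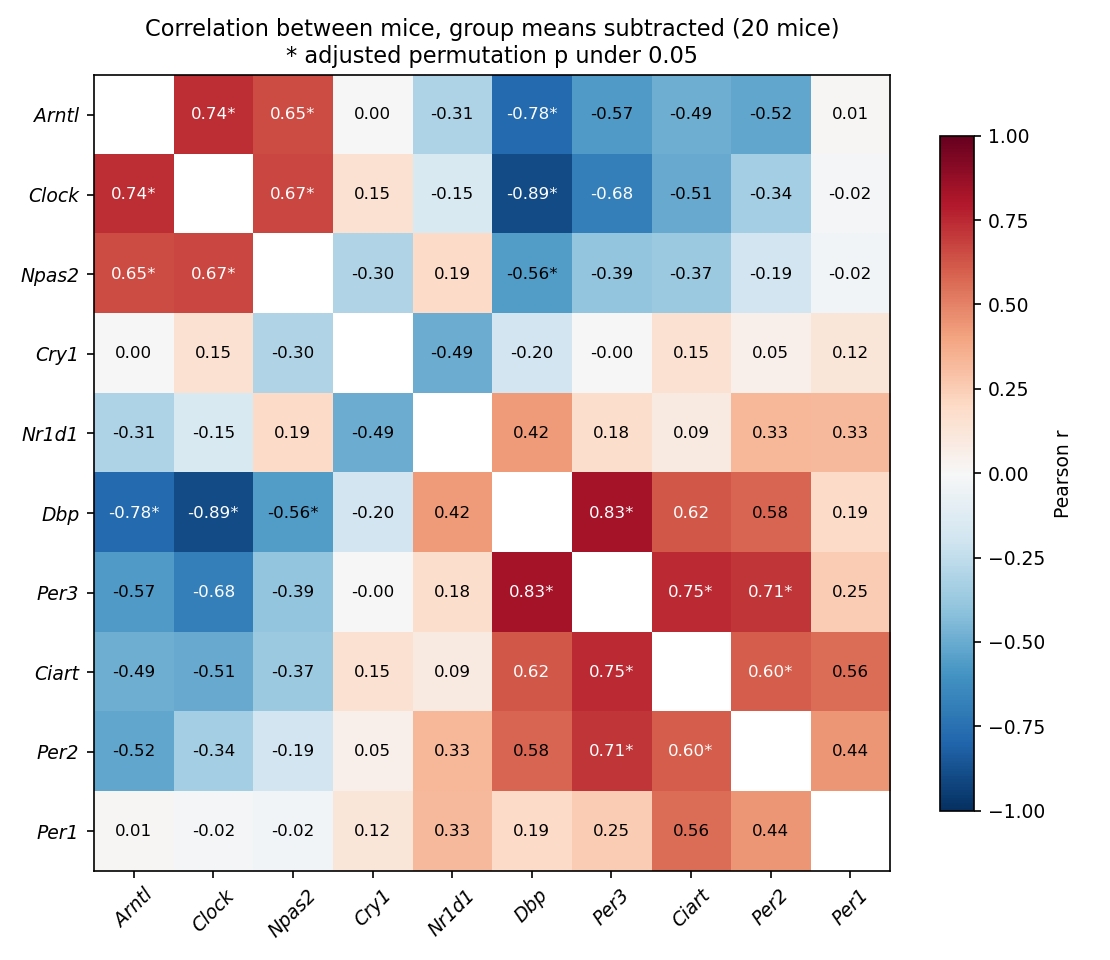
Pearson r between the log2 CPM of each pair of clock transcripts (rows and columns) over 20 mice after the mean of each group was subtracted, with red for positive and blue for negative values; a star marks an adjusted permutation p under 0.05. The block of Arntl, Clock and Npas2 is positive (0.65 to 0.74), and Dbp runs from −0.89 with Clock to 0.83 with Per3.

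Clock and Dbp formed the closest pair, with r = −0.89 (permutation p = 1e-05, the smallest that 100000 permutations can give, adjusted p = 0.00045). Spearman's rho was −0.88 (permutation p = 2e-05, adjusted p = 0.00090), r was −0.85 without the 2 mice farthest from the median of Clock, and r was −0.90 after GC correction. Clock transcripts hold 41.5% GC and Dbp transcripts 57.2%. Within groups Clock ran against the GC slope of the library (r = −0.64, and −0.39 after GC correction). Dbp ran with the slope (r = 0.73, and 0.48 after it). After the correction Arntl and Npas2 also ran against the slope (r = −0.32 and −0.40), and Per3 ran with it (0.34). The correction thus left a relation to the slope in these genes, and its part in the pair correlations was not tested. Arntl and Dbp had r = −0.78 (permutation p = 0.00090, adjusted p = 0.0081, rho = −0.75 with permutation p = 0.00079), −0.80 without the 2 farthest mice and −0.82 after GC correction. Npas2 and Dbp had r = −0.56 (permutation p = 0.0080, adjusted p = 0.036, rho = −0.63 with permutation p = 0.0037), −0.56 without the 2 farthest mice and −0.65 after GC correction, and the pair rests on the few counts of Npas2. When no group mean was subtracted, r of Npas2 and Dbp was 0.17.

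The activators moved together in the same mice. Arntl and Clock had r = 0.74 (permutation p = 0.0013, adjusted p = 0.0082, rho = 0.79 with permutation p = 0.00023). Arntl and Npas2 had r = 0.65 (permutation p = 0.0028, adjusted p = 0.016, rho = 0.78 with permutation p = 0.00035), and Clock and Npas2 had r = 0.67 (permutation p = 0.0048, adjusted p = 0.024, rho = 0.69 with permutation p = 0.0035). Without the 2 mice farthest from the median of the first gene these were 0.78, 0.74 and 0.69, and after GC correction they were 0.75, 0.64 and 0.71.

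Among the outputs and repressors, Per3 was tied to Dbp with r = 0.83 (permutation p = 0.00030, adjusted p = 0.0034, rho = 0.72 with permutation p = 0.0031) and to Ciart with r = 0.75 (permutation p = 0.0012, adjusted p = 0.0082, rho = 0.67 with permutation p = 0.0028). Per2 was tied to Per3 with r = 0.71 (permutation p = 0.00018, adjusted p = 0.0027, rho = 0.81 with permutation p = 0.00012) and to Ciart with r = 0.60 (permutation p = 9e-05, adjusted p = 0.0020, rho = 0.77 with permutation p = 4e-05). Without the 2 farthest mice of the first gene, r was 0.71 and 0.60 for the pairs of Per3 and 0.78 and 0.65 for those of Per2. After GC correction r was 0.85 and 0.76 for Per3, and 0.50 and 0.45 for Per2, the largest falls among the 10 pairs. Clock and Per3 had r = −0.68 and missed the threshold (permutation p = 0.013, adjusted p = 0.051), and passed after GC correction (r = −0.69, adjusted permutation p = 0.031). All 10 pairs passed with the same sign after GC correction, where 12 passed in all. When 1 mouse was left out at a time, 7 of the 10 pairs passed each time. Npas2 and Dbp did not pass without HFD control replicate 2, 4 or 5, Aroclor replicate 1, 2 or 5, PCB 126 replicate 3 or combined replicate 1 (adjusted permutation p up to 0.104). Over all fits that left out a mouse, passing or not, r of this pair ran from −0.64 to −0.49. Clock and Npas2 did not pass without HFD control replicate 4, Aroclor replicate 2 or 5 or PCB 126 replicate 3 (adjusted permutation p up to 0.0780). Over all such fits, passing or not, r of Clock and Npas2 ran from 0.60 to 0.73. Per3 and Ciart did not pass without HFD control replicate 2 (r = 0.72, adjusted permutation p = 0.0988).

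Single mice show the opposition of Dbp and Clock. HFD control replicate 4 was 0.85 below its group's mean log2 CPM for Dbp, 0.92 below for Per3 and 2.64 below for Ciart, and 0.66, 0.51 and 0.75 above it for Arntl, Clock and Npas2. PCB 126 replicate 2 stood the same way, with Dbp at −0.75 and Arntl and Clock at 0.99 and 0.55, while Npas2 was at 0.03. PCB 126 replicate 3 stood the other way, with Dbp at 0.59 and Arntl, Clock and Npas2 at −0.60, −0.52 and −0.94. HFD control replicate 1 had Dbp at 0.79, Per3 at 0.94 and Clock at −0.48, but Arntl (−0.06) and Npas2 (0.06) near the mean of its group. The difference between log2 CPM of Dbp and of Arntl in a mouse is a measure of these genes alone. It ran from 3.83 to 6.53 (median 5.76) in HFD control and 4.44 to 5.95 (median 5.49) with Aroclor. It ran from 3.63 to 6.56 (median 5.60) with PCB 126 and 3.43 to 5.14 (median 4.45) with the combined exposure. The groups overlapped, and after GC correction the medians were 5.41, 5.33, 5.47 and 5.01.

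**Figure D4:**
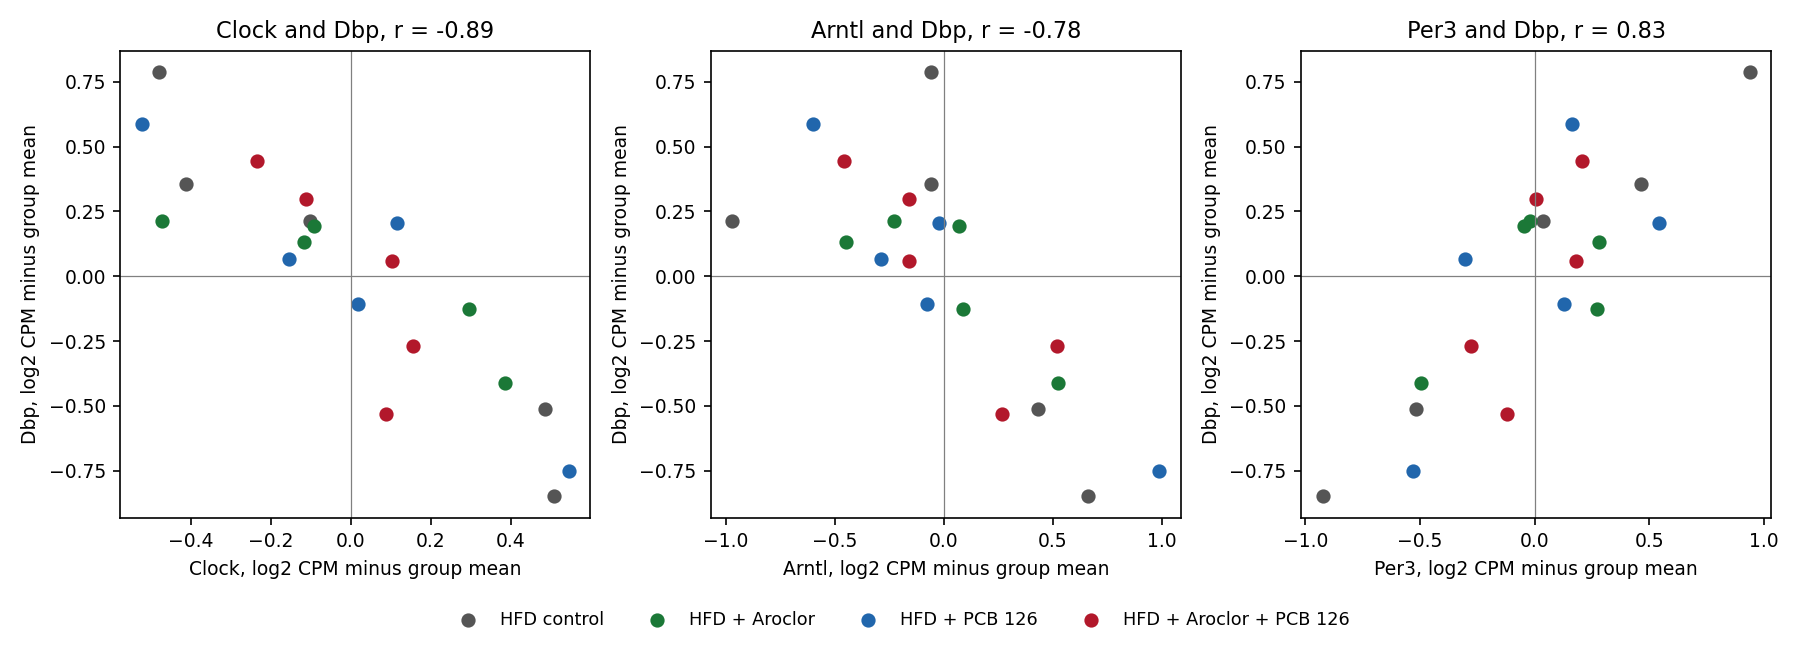
Log2 CPM of Dbp (y axis) against Clock, Arntl and Per3 (x axes), each minus the mean of its group, with 1 point for each of 20 mice coloured by group. Dbp falls as Clock and Arntl rise (r = −0.89 and −0.78) and rises with Per3 (r = 0.83), and mice of all 4 groups lie along each trend.

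Over the other genes with a mean of at least 1 CPM (11341 compared), those whose deviations were most like Arntl's were Tmem65 (r = 0.87), Nedd4l (0.83), Rbm4, Net1 and Klf6 (each 0.79 to 0.80), and those most opposed were Nat8 (−0.85), Rd3 (−0.81), Cyp2u1 (−0.80), Aptx (−0.78) and Dbp (−0.78). For Dbp the most alike were Hexdc (0.92), Tef (0.90), Tcea3 (0.88), Ric8a (0.88) and Nkd1 (0.88), and the most opposed were Clpx (−0.93), Pafah1b2 (−0.93), Smchd1 (−0.91), Rrm2b (−0.91) and Clock (−0.89). These are descriptions over 20 mice that share the GC slopes of their libraries. Of all these genes Dbp, Clock and Tef are clock genes, Tef being a PAR bZIP factor like Dbp. After GC correction Tef and Dbp had r = 0.89.

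The rest of the clock was covered by 20 related genes. With Aroclor none passed, where 0% of all genes did, and 6 had an unadjusted p under 0.05, against 17.2% of all genes. With PCB 126 none passed either, where 0.116% of all genes did, and 5 had an unadjusted p under 0.05, against 14.7% (edgeR). With the combined exposure 9 of 20 passed (32.8% of all genes did), 5 higher and 4 lower, with a median log2FC of 0.14 over the list. After GC correction, where 9.14% of all genes passed, 5 did, all in the direction they had before. DESeq2 called 3 of the 20 with Aroclor (Hlf, Nampt and Wee1, against 0.921% of all genes), 3 with PCB 126 (Bhlhe41, Nampt and Wee1, against 2%) and 9 with the combined exposure (against 35.9%).

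Among the partners of the members, Rora, a receptor that competes with REV-ERB alpha at ROR elements, had a log2FC of 0.63 ± 0.20 (adjusted p = 0.0193, edgeR), and Nr1d2, which encodes REV-ERB beta, one of 0.54 ± 0.13 (adjusted p = 0.00347); after GC correction they were at 0.29 and 0.17 and did not pass (0.284 and 0.287). Nr1d2 thus ran opposite to its paralogue Nr1d1, lower at −1.86 in the same comparison, while the difference between them was not tested. Hlf, a PAR bZIP factor like Dbp, rose (0.72 ± 0.12, adjusted p = 0.000816, with GC correction 0.46 and 0.0221). Tef, of the same family, had −0.05 ± 0.13 (adjusted p = 0.825), which turned to 0.11 after GC correction (0.644), and Nfil3, the repressor at D-boxes, had 0.22 ± 0.27 (adjusted p = 0.584, with GC correction 0.57 and 0.227). Cry2, the paralogue of Cry1, had 0.02 ± 0.14 (adjusted p = 0.930, with GC correction 0.33 and 0.108), and Bhlhe41, a repressor at E-boxes, fell (−0.91 ± 0.24, adjusted p = 0.00775, with GC correction −1.09 and 0.0130).

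Among the clock-controlled outputs, Wee1, a kinase that gates mitosis, rose from 11.4 ± 2.91 to 24.5 ± 2.10 CPM (log2FC 1.10 ± 0.19, adjusted p = 0.000945, edgeR, and 1.05 after GC correction). All mice of each exposure lay above all control mice for Wee1, though the exposures share these control mice. The share of all genes without overlap was not counted for the single exposures. The log2FC of Wee1 was 0.86 with Aroclor (adjusted p = 0.184, edgeR) and 0.76 with PCB 126 (adjusted p = 0.0852), neither of which passed. After GC correction they were at 0.82 and 0.75 and did not pass (0.235 and 0.0756). Nampt, the enzyme that sets the pace of NAD synthesis, rose from 75.6 ± 9.29 to 168 ± 23.2 CPM (1.15 ± 0.14, adjusted p = 0.000363, with GC correction 0.65 and 0.00307). Of the genes that act on the stability of PER and CRY proteins, the kinase genes Csnk1d (−0.28 ± 0.11, adjusted p = 0.0429) and Csnk1e (−0.46 ± 0.14, adjusted p = 0.0153) fell, and neither passed after GC correction (−0.12 and −0.00094). Btrc, a subunit of the ligase that marks PER proteins, fell before and after it (−0.30 ± 0.090, adjusted p = 0.0158, and −0.56, adjusted p = 0.00447).

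**Figure D5:**
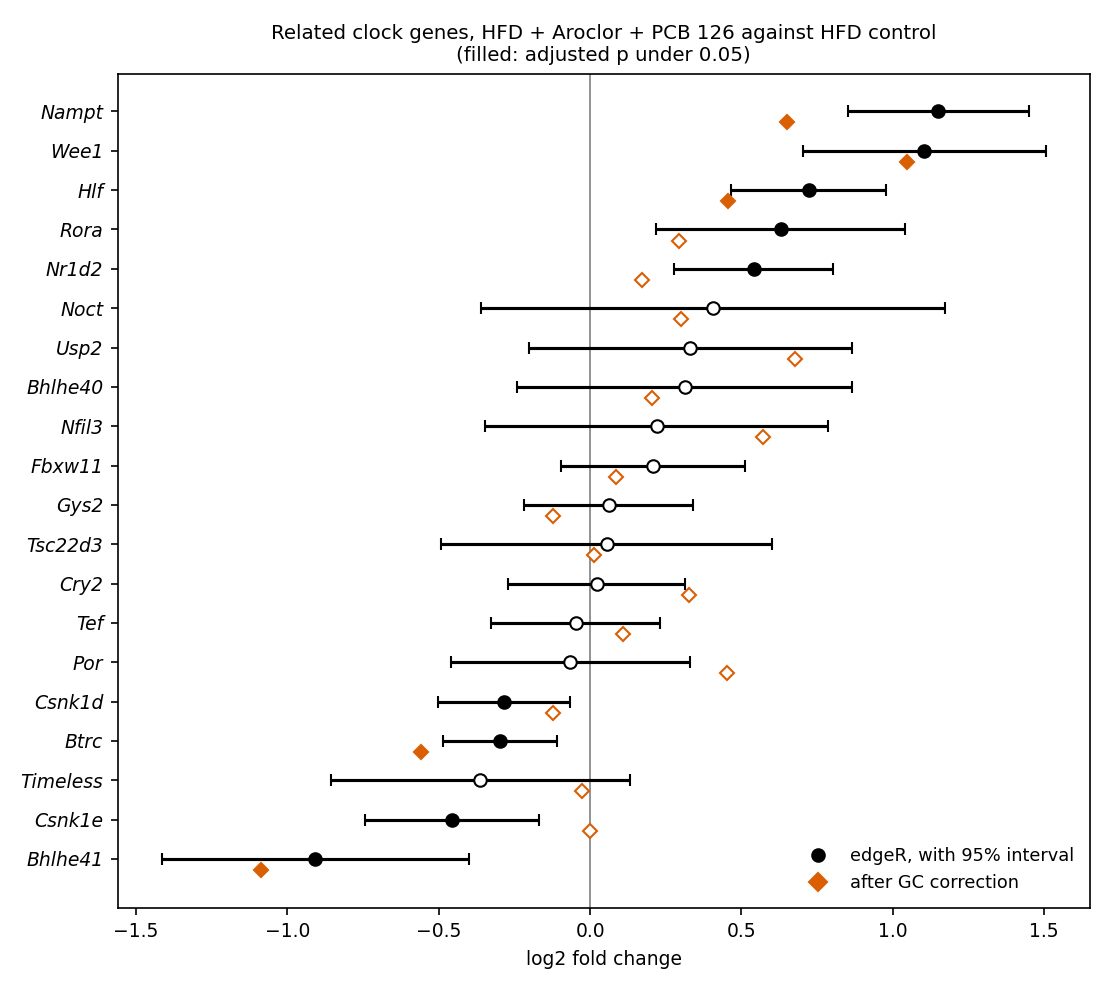
Log2 fold change (x axis) of the 20 related clock genes (rows) with the combined exposure against HFD control, 5 mice in each group; circles are edgeR estimates with their 95% interval, diamonds the estimates after GC correction, and filled symbols have an adjusted p under 0.05. Nampt (1.15) and Wee1 (1.10) stand at one end and Bhlhe41 (−0.91) at the other, and 5 genes are filled both ways.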

How the data were processed

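The deposited file holds the authors' raw counts for 21780 Ensembl genes in 20 libraries. To make these counts, stranded libraries of polyadenylated RNA were sequenced in 2 runs and, per the submitters' processing notes, FastQC 0.10.1, STAR 2.6 and HTSeq 0.10.0 were used with GRCm38.p6. Which annotation release was counted, and how strand was treated, is not given in the sources used here. PCB 126 replicate 2 carries another number in part of its label, and its title was followed. Total counts of the libraries ranged from 21836506 to 36854887, so a gene at 1 CPM had over 10 counts in each library.

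Genes with at least 10 counts in all (15522) were fitted with edgeR 4.0.16 in R 4.3.3 (TMM, quasi-likelihood test, 4 groups, 16 residual degrees of freedom), with Benjamini-Hochberg adjustment over all of them and a threshold of 0.05. For GC correction, each library's deviations of log2 CPM (prior count 2) were smoothed over transcript GC content (spline with 6 degrees of freedom) and entered as an offset (15516 genes have a GC content). Pair correlations used log2 CPM minus group means. Positions and names came from GENCODE M21 on GRCm38, promoter windows from RefSeq. The scripts were tested on simulated data. Alternatives were RLE factors, DESeq2 1.42.0, other filters, only the groups compared, GC correction, a replicate block, a threshold of 0.01 and each mouse left out.

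The members, gene lists and tests were chosen with earlier results of these data known. Named by rule were the 10 members, 3 exposure markers, those of 20 related clock genes that passed against HFD control together with Cry2, Nr1d2, Rora, Bhlhe41, Tef, Hlf and Nfil3, and the 5 genes most and least like Arntl and Dbp. Other genes of the related list are not reported here. C920021L13Rik, Camta1, Thra and Sphk2 are named for their position. No pair of mice of 1 group agreed within sampling noise (chi-square of at least 19.7 per degree of freedom over 40 pairs). Summed marker lists ranged over the 20 mice, in CPM, from 75.8 to 265 for Kupffer cells and macrophages, 78.5 to 177 for endothelial cells, 62.9 to 130.0 for cholangiocytes, 1.67 to 7.00 for lymphocytes, 0 to 19.6 for adipocytes and 137 to 366 for erythroid cells, and each of these overlapped between HFD control and the combined exposure.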

Additional observations from a re-analysis of the deposited data

Results flagged for a closer look

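In the 40 sets of 5 mice (10 transcripts in 4 groups), 1 value stood apart by Dixon's test: Arntl in HFD + PCB 126 replicate 2 was at 4.32 CPM, while the other 4 mice of the group were at 1.39 to 2.11 CPM (gap over range 0.75, above the critical value). Chance marks about 1 in 20 such sets. The mouse also had the lowest Dbp (54.3 CPM) and Nr1d1 (16.05 CPM) and the highest Clock (43.6 CPM) and Cry1 (12.3 CPM) of its group, and it is the mouse whose label holds a second replicate number.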

How the results depend on the processing

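With the combined exposure, Npas2, Cry1 and Nr1d1 passed in both the fit with and the fit without GC correction, Dbp and Per1 only without it. The FPKM filter kept 8 members and left Arntl and Npas2 untested. With PCB 126, 1 member passed with filterByExpr, the FPKM filter, GC correction, the replicate block or the block with GC correction, and 2 with DESeq2; leaving out a mouse gave 0 to 1. Against PCB 126, the combined exposure gave 1 member with filterByExpr, only the groups compared or the replicate block, 2 with the FPKM filter or DESeq2, and 0 to 2 without 1 mouse. Against Aroclor it gave 1 with no filter or GC correction, 0 with only the groups compared or a threshold of 0.01, and 0 to 3 without 1 mouse. The log2FC that turned with GC correction (and with the block and GC correction) were, with Aroclor, Clock −0.087 (−0.081), Per1 0.025 (0.027), Per2 0.048 (0.044) and Dbp 0.020 (0.047), and with the combined exposure Arntl −0.016, Clock −0.12 (−0.099) and Per1 0.028 (0.0057). Without 1 mouse, log2FC that crossed 0 ran from −0.35 to 0.011 (Arntl), −0.0018 to 0.26 (Clock), −0.043 to 0.39 (Cry1), −0.35 to 0.047 (Dbp) and −0.013 to 0.48 (Ciart) with Aroclor, from −0.25 to 0.051 (Clock), −0.047 to 0.077 (Per2) and −0.25 to 0.26 (Ciart) with PCB 126, and from −0.057 to 0.31 (Arntl) and −0.44 to 0.035 (Ciart) with the combined exposure. Of the 45 pairs, 8 to 13 passed without 1 mouse, 15 with RLE factors, 10 by Spearman's rho and 12 without subtracting group means, of which 5 were among the 10 reported; r of Npas2 and Dbp was then 0.17. The replicate block gave 19 pairs. The labels give mice of different groups nothing in common but a replicate number. Deviations of 30 same-numbered pairs had r from −0.26 to 0.74, 13 over 0.1, and 10 of 20 mice matched their own number best. Differently numbered pairs, and the matches that chance would give, were not counted. The cause of these changes was not tested. Depth limits Npas2 (1 to 26 counts per mouse), and unknown collection times limit what a level says.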
